A study of Homo sapiens with 4 samples.

Results

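The genes described here are 2 cyclins of S phase, CCNE1 and CCNA2, and 4 genes of the E2F program, E2F2, E2F8, RRM2 and ASF1B, in U2OS cells given siRNA against BRPF3. They were chosen by name because, in earlier results from these same arrays, the cyclins were lower and the other 4 genes higher after BRPF3 siRNA. Each has 1 probe set, so the description rests on 6 of the 53617 probe sets of the array, or 6 of 10696 genes bright enough to be tested. Their differences between the siRNAs are what selected them and are given below as a description, without a test.

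U2OS is an established human osteosarcoma line, and every group came from it. The control group was transfected with a non-targeting (scramble) siRNA and the other group with siRNA against BRPF3, a scaffold protein of histone acetyltransferase complexes, each at 50 nM for 48 hours by lipofection. Each group has 2 arrays, which the labels call biological replicates without saying how separate the cultures were, so a p-value here reflects only how far these few arrays spread, which may be technical. No second siRNA against BRPF3 and no measurement of BRPF3 itself was analysed here, so the depletion was not checked and an effect of the siRNA sequence cannot be told apart from one of BRPF3 loss.

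Cyclins are the regulatory subunits that switch on cyclin-dependent kinases (CDKs). Cyclin E, partnered with CDK2, acts at the entry into S phase, and cyclin A takes over CDK2 during S phase and CDK1 afterwards. E2F factors bind the promoters of genes needed for DNA synthesis and are held in check by RB and its relatives until CDKs phosphorylate them. E2F2 belongs to the activating E2Fs, whereas E2F8 is an atypical member that represses the same targets later in S phase. RRM2 is the regulated small subunit of ribonucleotide reductase, which makes deoxynucleotides, and ASF1B is a chaperone that hands histones H3 and H4 to assembly factors behind the replication fork. CCNE1, CCNA2 and the other 4 genes are all textbook E2F targets, and CCNA2 is in addition regulated through a cell cycle element (CHR) that the DREAM complex binds.

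Since these genes are grouped by a shared regulator, the bases before their annotated starts are shown for the 5 that have an entry in the RefSeq promoter table (GRCh38.p14), each as the 250 bases up to the start, 5′ to 3′ on the strand of the gene. E2F8 is named only. Capitals mark letters of the E2F core (TCCCGC or TGGCGC), the longer E2F site (TTTCCCGC, TTTCGCGC, TTTGCCGC or TTTGGCGC), the CHR (TTTGAA, or the shorter TTGAA) and the CCAAT box (CCAAT), each on either strand. RRM2 has 2 annotated starts, and the window of the outer one is printed.
CCNE1, chr19:29811741-29811990, plus strand: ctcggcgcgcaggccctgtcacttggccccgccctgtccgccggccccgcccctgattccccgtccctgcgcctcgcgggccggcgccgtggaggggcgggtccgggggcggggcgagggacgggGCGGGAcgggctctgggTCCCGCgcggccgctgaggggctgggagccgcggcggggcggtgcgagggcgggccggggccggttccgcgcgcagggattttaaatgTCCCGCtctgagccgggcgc
CCNA2, chr4:121823884-121824133, minus strand: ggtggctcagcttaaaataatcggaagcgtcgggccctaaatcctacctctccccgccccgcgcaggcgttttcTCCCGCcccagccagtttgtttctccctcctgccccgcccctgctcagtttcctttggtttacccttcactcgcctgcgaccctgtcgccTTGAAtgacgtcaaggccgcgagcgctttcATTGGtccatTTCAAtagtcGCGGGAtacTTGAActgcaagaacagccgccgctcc
E2F2, chr1:23531234-23531483, minus strand: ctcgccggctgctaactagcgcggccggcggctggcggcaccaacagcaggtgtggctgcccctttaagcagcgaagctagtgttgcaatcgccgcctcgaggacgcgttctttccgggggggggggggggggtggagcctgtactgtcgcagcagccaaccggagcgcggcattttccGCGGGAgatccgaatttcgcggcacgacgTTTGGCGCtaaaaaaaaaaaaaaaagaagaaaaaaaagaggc
RRM2, chr2:10122318-10122567, plus strand: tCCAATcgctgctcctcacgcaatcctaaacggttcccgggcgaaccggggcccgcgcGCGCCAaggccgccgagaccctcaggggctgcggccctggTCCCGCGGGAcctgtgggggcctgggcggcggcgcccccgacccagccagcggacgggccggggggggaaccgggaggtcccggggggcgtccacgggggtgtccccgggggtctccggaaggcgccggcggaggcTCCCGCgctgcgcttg
ASF1B, chr19:14136590-14136839, minus strand: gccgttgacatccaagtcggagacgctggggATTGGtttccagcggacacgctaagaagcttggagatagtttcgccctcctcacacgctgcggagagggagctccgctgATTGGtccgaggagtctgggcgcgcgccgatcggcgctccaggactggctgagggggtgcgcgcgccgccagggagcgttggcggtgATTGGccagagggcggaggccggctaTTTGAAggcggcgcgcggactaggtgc

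The E2F core was found before 4 of the 5 genes, CCNE1, CCNA2, E2F2 and RRM2, so it was present both before the lower cyclins and before higher E2F program genes. Windows of this length hold it in 31.5% of all 35116 entries of the table and in 44.9% of the 11744 entries of tested genes. CCNE1 had 3 matches, the nearest at -20 to -15 bases from the start, in a window that was 81.2% G and C, against a median of 58.0% for all windows. The long E2F site was found before E2F2 alone, at -42 to -35, and 2.79% of all windows and 3.9% of those of tested genes hold it. Its last bases are also counted as an E2F core. The match of the E2F core at -125 to -120 before CCNE1 overlaps a GC box (GGGCGG), of which that window holds 7. Before CCNA2 the E2F core at -176 to -171 likewise overlaps a GC box, at -174 to -169. A GC box is held by 42.6% of all windows and 62.1% of those of tested genes.

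CCNA2 combined more kinds of element than the other windows. An E2F core at -36 to -31 lay 3 bases from a short CHR at -27 to -23. A CCAAT box lay at -56 to -52. The core of a cAMP response element (TGACGT) lay at -81 to -76 and, on the other strand, at -79 to -74. That core was found in 7.1% of all windows and 8.8% of those of tested genes. The CCAAT box was also found before ASF1B, with 3 matches on the other strand, and before RRM2, with 1 match in the outer window and 3 in the window of the inner start, which overlaps it. Of all windows, 32.0% hold a CCAAT box, and 30.0% hold the short CHR (32.5% and 21.7% of the windows of tested genes). The short CHR was found 3 times before CCNA2, at -174 to -170 before the inner start of RRM2, and within the full CHR of ASF1B. ASF1B was the 1 gene with the full CHR, at -27 to -22, which 13.3% of all windows and 9.18% of those of tested genes hold. A match is only a run of letters and not a measured binding site, and letters that were not found say nothing about the factor.

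**Figure D1:**
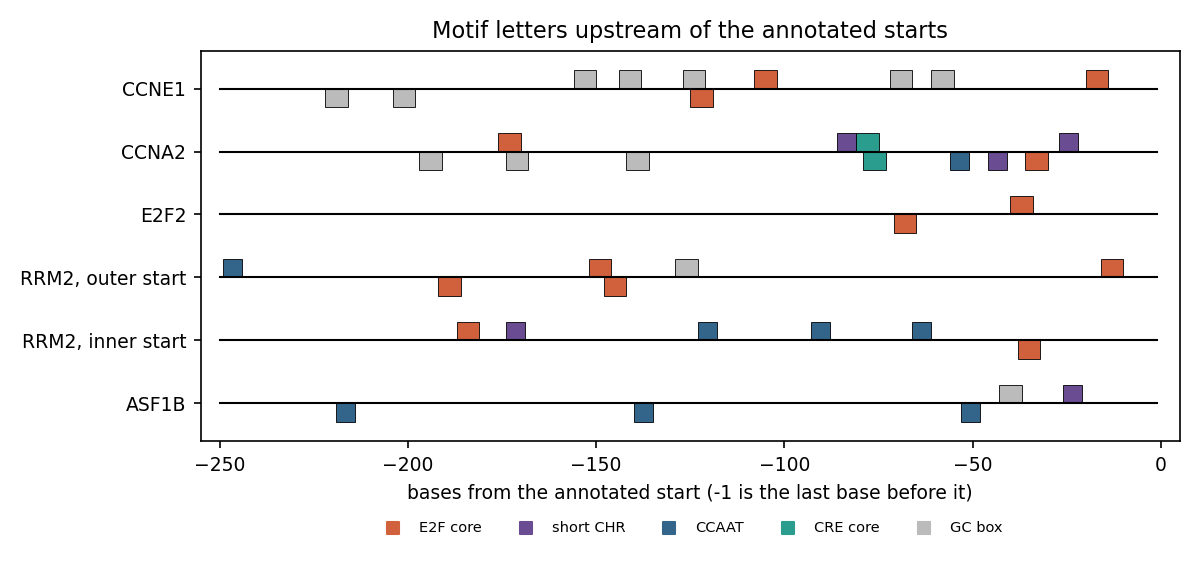
Motif matches in the 250 bases before each annotated start, by distance from the start in bases; boxes above a line are on the strand of the gene and boxes below it on the other strand. The E2F core appears before CCNE1, CCNA2, E2F2 and at both starts of RRM2, and the CCAAT box appears 3 times before ASF1B and 3 times before the inner start of RRM2.

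Values are log2 intensities as the authors normalized them, so a difference of 1 is a doubling, and levels of different genes are not compared. CCNA2 had the largest difference of the 6. The control arrays gave 10.89 and 10.94, and the BRPF3 siRNA arrays gave 10.29 and 10.35. Both BRPF3 siRNA arrays were thus well below both control arrays, with a gap of 0.54 between the nearest arrays and no more than 0.06 between arrays of a group. The difference was -0.59 ± 0.08 (moderated SE from limma, with n = 2 in each group, here and after every difference that follows), a level 66.2% of that in control cells. Because the cells were measured in bulk, fewer cells in a phase of the cycle and less RNA per cell cannot be told apart here, for CCNA2 or for any gene below.

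CCNE1 read 10.51 and 10.57 with control siRNA and 10.09 and 9.97 with BRPF3 siRNA. The groups did not overlap, and the BRPF3 siRNA arrays lay further apart (0.12) than the control arrays (0.05). The mean level was 70.3% of that in control cells, a log2 difference of -0.51 ± 0.08.

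The transcription factors E2F2 and E2F8 were both higher. E2F2 was at 7.63 and 7.74 in the control arrays and at 8.17 and 8.07 in the BRPF3 siRNA arrays. The difference was 0.43 ± 0.09, or 1.35-fold, with 0.11 between the control arrays. E2F8 was at 8.71 and 8.75 and then at 9.17 and 9.10, which is 1.32-fold (0.41 ± 0.08). The control arrays of E2F8 were close together, 0.04 apart, and the groups of both genes were separate.

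RRM2 and ASF1B serve DNA synthesis and the packing of new DNA. RRM2 was at 9.99 and 9.90 with control siRNA and 10.36 and 10.47 with BRPF3 siRNA. It was 1.39-fold higher (0.47 ± 0.09), the largest of the 4 higher values. ASF1B was at 8.62 and 8.60 in control cells and 9.03 and 8.91 after BRPF3 siRNA, 1.28-fold higher (0.36 ± 0.08). The gap between the nearest arrays of the groups was 0.37 for RRM2 and 0.29 for ASF1B, the smallest gap among the 6 genes.

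**Figure D2:**
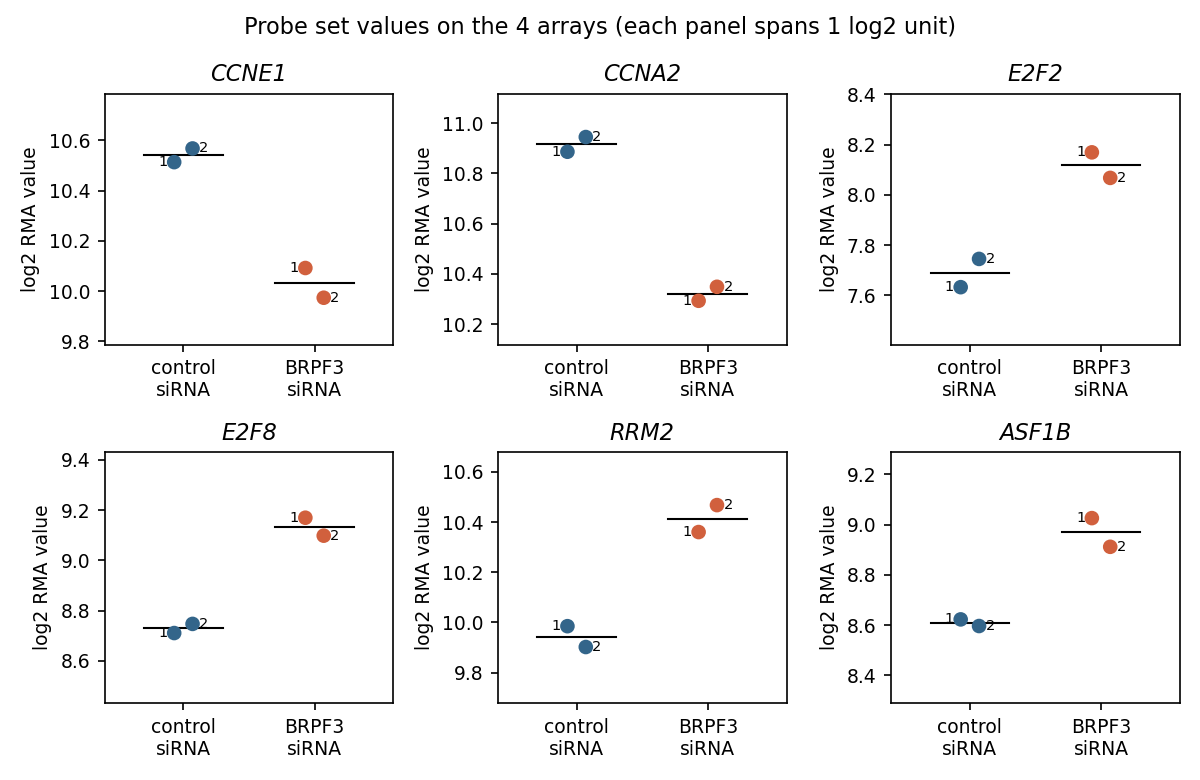
Log2 RMA value of each gene on the 4 arrays, with replicate numbers beside the points and a line at each group mean; every panel spans 1 log2 unit. CCNE1 and CCNA2 sit lower with BRPF3 siRNA, E2F2, E2F8, RRM2 and ASF1B sit higher, and in no panel do the groups overlap.

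The 4 higher genes thus lay between 1.28-fold and 1.39-fold of control, and the cyclins at 66.2% and 70.3% of it. The median size of a difference was 0.17 over all tested genes and 0.49 over the genes that changed (limma, Benjamini-Hochberg adjusted p under 0.05). By that rule 15.8% of all tested genes changed, 6.32% higher and 9.44% lower, and arrays of the groups did not overlap for 63.2%. The 6 genes were picked from among the changed genes, so nothing is read from their own share. With 1 array left out, the difference ran from -0.62 to -0.57 for CCNA2, -0.57 to -0.45 for CCNE1, 0.37 to 0.49 for E2F2, 0.37 to 0.44 for E2F8, 0.42 to 0.52 for RRM2 and 0.30 to 0.42 for ASF1B.

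Lists of related genes, which share some members, were then read from the same fit, with the 6 genes left out of every count. Over 7 lists, 150 other genes of the cell cycle, E2F control, nucleotide supply and histone handling were tested. Of these 1 rose, 15 fell and 134 did not pass, so that 10.7% changed, against 15.8% of all tested genes. The share that rose was 0.667%, against 6.32% of all tested genes, and the share that fell was 10%, against 9.44%. Their median difference was -0.06, and that of all tested genes was -0.03. After quantile normalization 4 rose and 7 fell: 8 of the 16 calls were kept, 8 ended, and CCNE2, GINS1 and MYBL2 were added. With an intensity trend in limma's variance prior all 16 were kept and 23 added, so that 8 rose and 31 fell, while over all tested genes 1036 rose and 1609 fell. Over all tested genes the split was 676 higher and 1010 lower on the deposited values, and 764 and 718 after quantile normalization. Leaving out control replicate 1 or control replicate 2 left 0 of the 16 calls, as it left 0 calls over all 10696 tested genes. Leaving out BRPF3 siRNA replicate 1 left 6 (CDC16, CHEK1, DSCC1, HMMR, NAP1L4 and PCNA). Leaving out BRPF3 siRNA replicate 2 left 2, DSCC1 and NAP1L4, which were also the 2 calls left without an intensity filter.

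Among 19 other cyclins, CDKs and direct CDK regulators, 0 rose and 3 fell in limma's test (1 higher and 3 lower at an unadjusted p under 0.05), a share of 15.8%, the same as in the background, with a median difference of -0.04. CKS2, a small CDK-binding protein, read 11.02 and 11.09 in control cells and 10.56 and 10.75 after BRPF3 siRNA (-0.40 ± 0.10, limma adjusted p = 0.0473). CCNB1, the mitotic cyclin B1, read 10.32 and 10.23 and then 9.88 and 9.91 (-0.38 ± 0.08, limma adjusted p = 0.0353). CDK7, the kinase that activates other CDKs, fell by 0.32 ± 0.08 (limma adjusted p = 0.0489). In each of these the arrays of the groups were separate, and quantile normalization ended each of these 3 calls, leaving CCNE2, which rose, as the 1 call of the list.

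The paralog of cyclin E1 lay on the opposite side. CCNE2 read 7.48 and 7.62 in the control arrays and 7.85 and 8.01 in the BRPF3 siRNA arrays, a difference of 0.38 ± 0.10 with separate groups. It did not pass (limma adjusted p = 0.0527), but did so after quantile normalization (0.43, limma adjusted p = 0.0412), with a replicate block and with an intensity trend. Without the intensity filter (limma adjusted p = 0.110) and with the mean of probe sets (limma adjusted p = 0.0532) it did not pass. With an array left out its difference ran from 0.30 to 0.46. The difference of CCNE2 exceeded that of ASF1B (0.36), the smallest among the 6 genes. Arrays within a group were further apart for CCNE2 (0.14 and 0.16) than for ASF1B (0.03 and 0.11). The gap between the nearest arrays of the groups was smaller, 0.23 against 0.29. The other near miss on the high side was MYBL2, a transcription factor switched on by E2F, at 0.32 ± 0.09 (limma adjusted p = 0.0555).

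The kinase partners of cyclins E and A did not pass the test. CDK2 differed by -0.05 ± 0.10 (limma adjusted p = 0.738) and CDK1 by -0.04 ± 0.09 (limma adjusted p = 0.764), and both signs turned after quantile normalization (0.04 for each). The interval of the difference was -0.29 to 0.18 for CDK2 and -0.25 to 0.17 for CDK1 (95%, from limma, not adjusted for the number of genes). CCNB2, the other mitotic cyclin B, was at 0.01 ± 0.09. The D cyclins, which with CDK4 and CDK6 start the phosphorylation of RB, gave 0.16 ± 0.08 for CCND1, 0.06 ± 0.09 for CCND2 and -0.19 ± 0.12 for CCND3, none past the test. CCND2 has a second, dimmer probe set, at -0.04. CDK4 (0.07 ± 0.08) and CDK6 (-0.19 ± 0.10) did not pass either. CCNA1 and most CDK inhibitors were not analysed here, and CDKN2A lay under the intensity bound on every array, between 4.10 and 4.24 against a bound of 4.59.

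**Figure D3:**
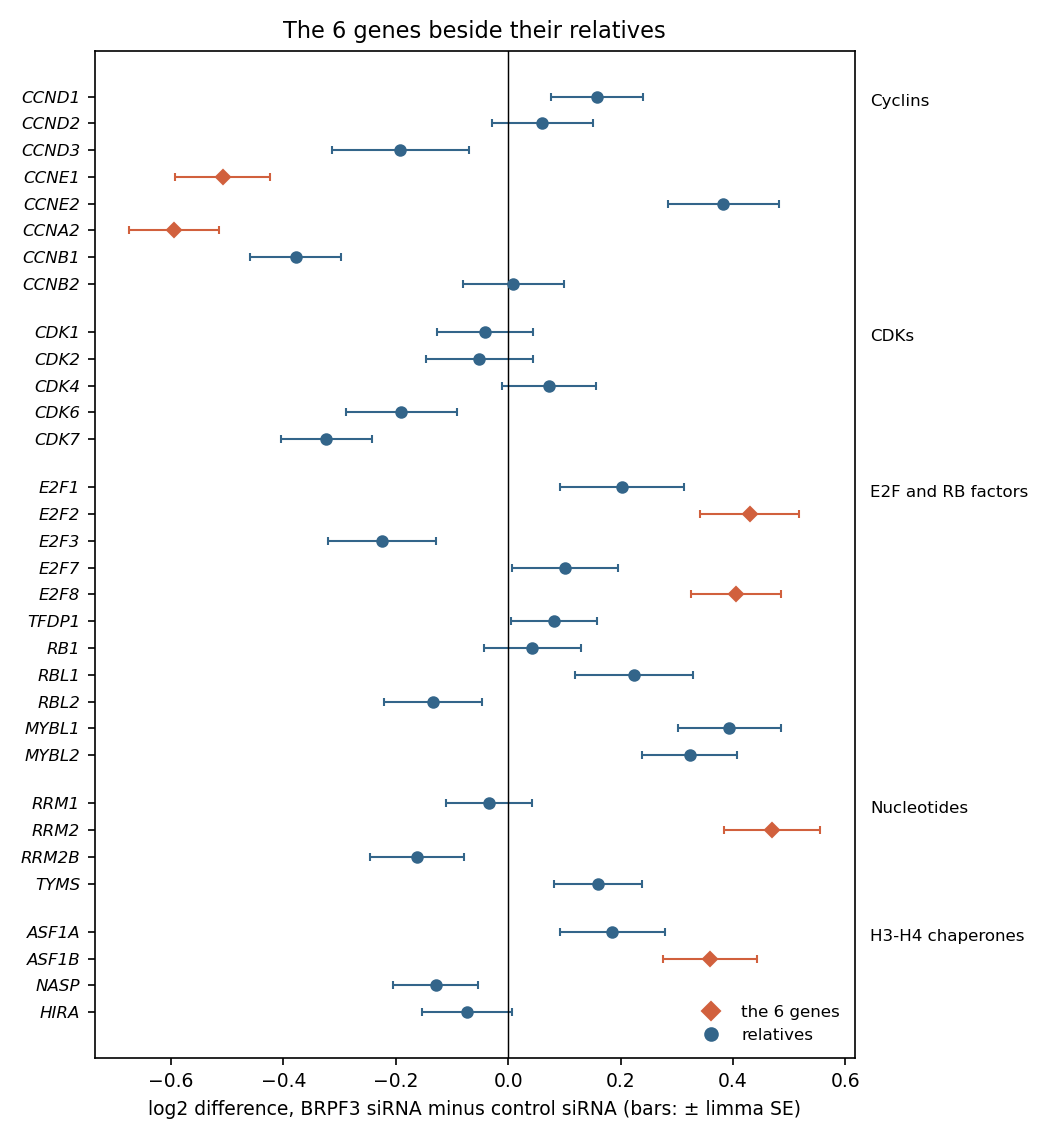
Log2 difference, BRPF3 siRNA minus control siRNA, of the 6 genes (diamonds) and their relatives (circles), with bars of ± limma's SE from 2 arrays per group. CCNE1 (-0.51) and CCNE2 (0.38) lie on opposite sides of 0, as do E2F2 (0.43) and E2F3 (-0.22), while RRM1 (-0.03) and CDK2 (-0.05) lie near 0.

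Of 17 other E2F, RB and DREAM factors 1 rose and 0 fell in limma's test (3 higher and 1 lower at an unadjusted p under 0.05), a share of 5.88%, with a median difference of 0.03. The gene that rose was MYBL1, a relative of MYBL2, at 7.42 and 7.56 in control cells and 7.84 and 7.94 after BRPF3 siRNA (0.39 ± 0.09, limma adjusted p = 0.0413). The other activating E2Fs were on different sides: E2F1 at 0.20 ± 0.11 (limma adjusted p = 0.251) and E2F3 at -0.22 ± 0.10 (limma adjusted p = 0.164). E2F7, the close relative and partner of E2F8, differed by 0.10 ± 0.09 (limma adjusted p = 0.487), with overlapping arrays. The dimerization partner TFDP1 (0.08 ± 0.08), RB1 (0.04 ± 0.09) and its relatives RBL1 (0.22 ± 0.10) and RBL2 (-0.13 ± 0.09) did not pass. E2F4, E2F5 and E2F6 were not analysed here. E2F2 and E2F8 therefore had the largest positive differences among the E2F factors that were tested, which is what they were chosen for.

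Of 40 other G1/S genes known as E2F targets that were tested, 0 rose and 3 fell in limma's test, a share of 7.5%. On the deposited values 17 differences were above 0 and 23 below, with a median of -0.04. After quantile normalization more of the 40 differences were above 0 than below, so the lean of the list depended on the normalization. DSCC1, part of a loader of the sliding clamp PCNA, had the largest difference: it read 9.46 in each control sample and 8.58 and 8.52 after BRPF3 siRNA, and fell by 0.91 ± 0.08 (limma adjusted p = 0.00756). CHEK1, the S phase checkpoint kinase, read 8.67 and 8.56 and then 8.12 and 8.03 (-0.54 ± 0.09, limma adjusted p = 0.0190). PCNA itself read 10.39 and 10.44 and then 9.95 and 9.83 (-0.52 ± 0.08, limma adjusted p = 0.0195). These E2F targets thus differed in the direction of the cyclins and not of RRM2 and ASF1B, and each kept its call after quantile normalization. The split of this list changed with the setting: after quantile normalization 3 rose (CCNE2, GINS1 and MYBL2) and 3 fell, and with an intensity trend 5 rose (these and DNMT1 and TYMS) and 6 fell.

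Most of the helicase and fork genes in that list did not pass. MCM2 to MCM7 and MCM10 lay between -0.12 (MCM6) and 0.10 (MCM7), and CDC6, which loads the helicase, was at -0.21 ± 0.08 (limma adjusted p = 0.135). On the higher side GINS1, a helicase subunit, was at 0.27 ± 0.08 (limma adjusted p = 0.0741), and passed after quantile normalization at 0.34 (limma adjusted p = 0.0461). At an unadjusted p under 0.05, 3 of the 40 genes were higher and 6 lower, as were 1587 and 2119 of all tested genes.

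**Figure D4:**
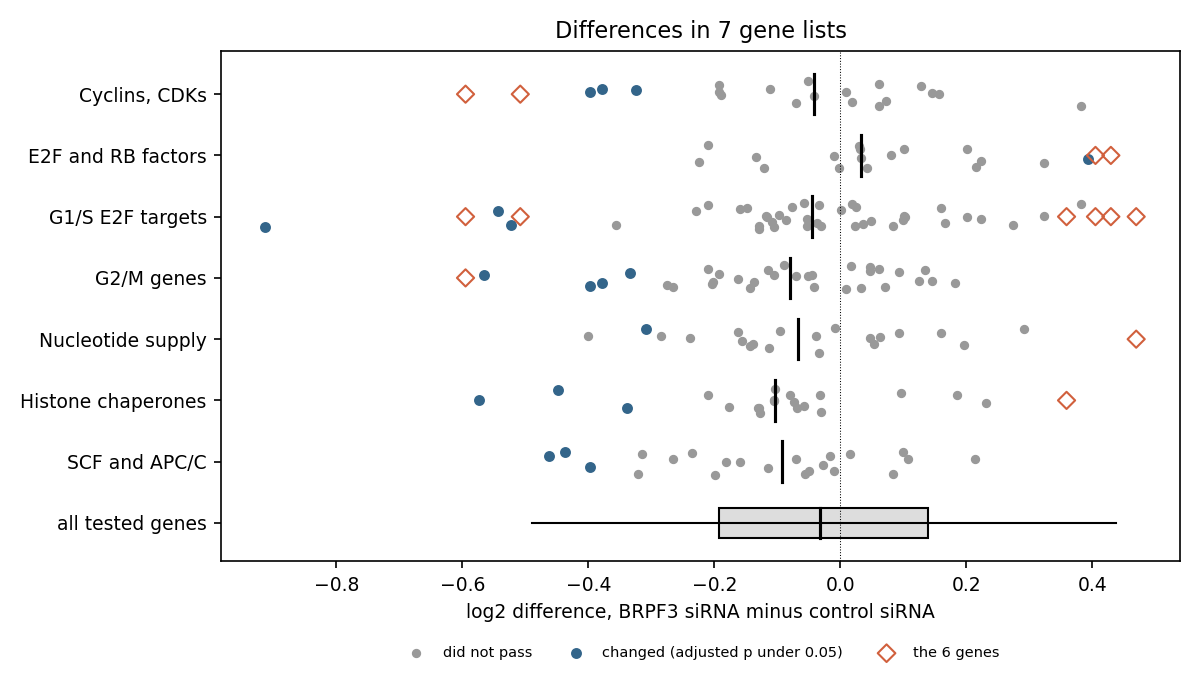
Log2 differences of the tested genes of 7 lists, with changed genes in blue, the median of each list without the 6 genes as a black line, and the 6 genes as open diamonds; the bottom line spans the 5th to 95th percentile of all tested genes and its box the quartiles. In the list of G1/S E2F targets 3 genes fell and 0 rose beside the 6 genes (3 and 3 after quantile normalization, 6 and 5 with an intensity trend), and the list medians lie between -0.10 and 0.03.

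In nucleotide supply, of 20 genes tested beside RRM2, 0 rose and 1 fell in limma's test (2 higher and 4 lower at an unadjusted p under 0.05), a share of 5%, with a median difference of -0.07. RRM1, the large subunit that forms ribonucleotide reductase with RRM2, read 9.74 and 9.76 in control cells and 9.71 and 9.73 after BRPF3 siRNA (-0.03 ± 0.08, limma adjusted p = 0.785), with a 95% interval of -0.22 to 0.15. RRM2B, the alternative small subunit induced by p53, was at -0.16 ± 0.08 (limma adjusted p = 0.228). TYMS, which makes thymidylate and is another E2F target, was at 0.16 ± 0.08 (limma adjusted p = 0.210). With an intensity trend TYMS passed (limma adjusted p = 0.0198), as 1 of 2 genes of the list that rose in that setting, where 4 fell. DCTPP1, which hydrolyses dCTP and modified nucleotides, fell by 0.31 ± 0.08 (limma adjusted p = 0.0488), a call that ended after quantile normalization. TK1 was not analysed here.

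Among histone chaperones and their regulators, 0 of 20 others rose and 3 fell in limma's test (1 higher and 4 lower at an unadjusted p under 0.05), a share of 15%. On the deposited values 17 differences were below 0, with a median of -0.10. Fewer were below 0 after quantile normalization, though still more than were above it. ASF1A, the paralog of ASF1B that is less tied to proliferation, read 8.82 and 8.76 and then 8.89 and 9.07 (0.19 ± 0.09, limma adjusted p = 0.222), so its groups were separate but it did not pass. NAP1L4, a chaperone of histones H2A and H2B, fell by 0.57 ± 0.08 (limma adjusted p = 0.0153) on its brighter probe set and was at -0.11 on its other one, and the mean of both did not pass. IPO4, an importin that carries H3 and H4 with ASF1, fell by 0.45 ± 0.09 (limma adjusted p = 0.0314), and TLK2, a kinase that phosphorylates ASF1 proteins, fell by 0.34 ± 0.08 (limma adjusted p = 0.0442). Quantile normalization ended the calls of IPO4 and TLK2. The CAF-1 subunits CHAF1A and CHAF1B were not analysed here.

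CCNA2 is also counted among genes of G2 and mitosis. Of 32 others in that list 0 rose and 4 fell in limma's test (0 higher and 9 lower at an unadjusted p under 0.05), a share of 12.5%, with a median difference of -0.08. HMMR, which organises the spindle, read 9.86 and 9.95 and then 9.41 and 9.27 (-0.57 ± 0.09, limma adjusted p = 0.0186), close to the difference of CCNA2. The others were CKS2, CCNB1 and the kinesin KIF2C (-0.33 ± 0.08, limma adjusted p = 0.0430), and all but HMMR lost their call after quantile normalization. With an intensity trend 0 genes of the list rose and 10 fell. Major markers of proliferation in the same list did not pass, among them MKI67 (0.09 ± 0.10), TOP2A (0.02 ± 0.08) and FOXM1 (0.03 ± 0.08), which drives the late part of the cycle. BUB1 (-0.27 ± 0.08), CDC20 (-0.27 ± 0.09) and PLK1 (-0.14 ± 0.08) did not pass either, but were among the 10 that fell with an intensity trend. Of the 32 differences 12 were above 0 and 20 below on the deposited values, whereas more were above 0 than below after quantile normalization.

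Cyclins are removed by ubiquitin ligases of the SCF and APC/C families. Of 22 tested components and regulators 0 rose and 3 fell in limma's test (0 higher and 8 lower at an unadjusted p under 0.05), a share of 13.6%, with a median difference of -0.09. All 3 are subunits of the APC/C, which destroys cyclins A and B: CDC16 (-0.46 ± 0.09, limma adjusted p = 0.0266), CDC26 (-0.44 ± 0.08, limma adjusted p = 0.0269) and ANAPC13 (-0.40 ± 0.08, limma adjusted p = 0.0311). The call of ANAPC13 ended after quantile normalization. FBXW7 and SKP2, which recognise cyclin E and CDK inhibitors, were not analysed here.

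The genes whose values over the 4 arrays were most like each of the 6 were found by the distance between array values centred on the gene's own mean (Euclidean, log2 units, 4 arrays). For CCNE1 the nearest of 10695 genes was PCNA, at a distance of 0.015, then STX7, a syntaxin of endosomes, at 0.018. For CCNA2 they were ERI1, an exonuclease that trims histone mRNA and ribosomal RNA, at 0.020, and NAP1L4 at 0.029. The nearest genes were ZNF185 and LRRK2 for E2F2, ABHD14B and AQP11 for E2F8, CCDC127 and AK5 for RRM2, and SPRYD4 and MIR3116-1 for ASF1B, at distances from 0.011 to 0.043. With 4 values per gene many profiles are close by: between 74 (CCNA2) and 151 (ASF1B) genes lay within 0.1. The control mean of AK5 (4.51) lay under the intensity bound, and the other probe set of MIR3116-1 differed by -0.50, against 0.35 for the one used.

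Of the markers of the labelled cell type, the osteoblast regulator RUNX2, the mesenchymal filament gene VIM and S100A4 were above the intensity bound on all arrays. SP7 was close to it and TWIST1 was below it. COL1A1, COL1A2, SPARC, ALPL, BGLAP and CDH2 were not analysed here. Of the endothelial markers PECAM1, VWF and KDR had group means below the bound. Of the leukocyte markers CD14 was below it and LCP1 and SPI1 were above it in both groups, and of the epithelial markers KRT5 was below it and EPCAM, KRT8, KRT14, KRT18 and KRT19 had means above it in both groups. In limma's test 3 of the 11 tested marker genes of these lists fell and 0 rose, while 9.44% of all tested genes fell and 6.32% rose. The 3 were S100A4 (-0.66 ± 0.08), KRT18 (-0.49 ± 0.09) and LCP1 (-0.67 ± 0.13). The mean log2 value over the 5 of 11 osteosarcoma and mesenchymal markers measured was 5.96 to 6.04 in control and 5.92 to 5.93 in BRPF3 siRNA arrays. Over the 6 of 7 epithelial markers measured it was 6.46 to 6.54 in control and 6.46 to 6.47 in BRPF3 siRNA arrays. Over the 3 of 6 leukocyte markers it was 5.88 to 5.95 and 5.69 to 5.82. The markers of the labelled type did not have the highest mean. Each mean is over different genes, whose levels are not compared here, so the means do not rank the cell types. PTPRC and CD3E were not analysed here. The part of these genes in the differences of the cyclins and E2F program genes was not tested.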

How the data were processed

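Total RNA from 4 U2OS samples was hybridised to Affymetrix whole-transcript arrays, 1 per sample, per the labels' protocols. The deposited values are log2 values that the authors made with RMA (background correction, normalization between arrays and summary by probe set), per the submitters' processing notes; which RMA version, settings and probe set definitions were used was not stated. They ran from 0.80 to 13.57 and were used as deposited. Normalization between arrays removes shifts common to all transcripts, and values near background compress differences.

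A platform annotation named 16098 of the 53617 probe sets with 1 gene symbol, 0 with several, and left 37519 unnamed; all 16098 identifiers matched RefSeq, and 0 symbols changed. The brightest probe set stood for each of 14884 genes, and the 10696 genes whose mean reached 4.59, the median over probe sets, were tested. Groups were taken from the sample titles and compared by limma's lmFit and eBayes (limma 3.58.1, R 4.3.3, two-sided; 2 residual and 3.81 prior degrees of freedom), with Benjamini-Hochberg adjustment over all tested genes and a threshold of 0.05. The fit was also run on simulated data, drawn with the gene means and variance prior of the real fit. With 2 arrays against 2, an exact permutation test could not reach that threshold.

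The 6 genes, the lists, the rules for naming genes (relatives by name, the 3 highest and 3 lowest changed genes of a list, and the 2 nearest profiles per gene) and the tests were chosen with earlier results of these data known. GINS1, MYBL2, DNMT1, KIF2C, PPAT, MCM6, MCM7, CDC6, MKI67, TOP2A, FOXM1, BUB1, CDC20, PLK1, S100A4, KRT18 and LCP1 fall outside the rules and were named after their values were seen. Alternatives were quantile normalization, a replicate block, an intensity trend, no intensity filter, the mean of a gene's probe sets, and leaving out each array. Motif letters were searched on both strands of RefSeq promoter windows.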

Additional observations from a re-analysis of the deposited data

How the results depend on the processing

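For the 6 genes, the block, the trend and the filter can change only the error of the difference. Each gene has 1 probe set, so the mean of probe sets cannot change the difference either. Leaving out an array cannot turn it, since their groups do not overlap. These outcomes were fixed in advance and do not show how firm the differences are. Quantile normalization moved CCNE1 to -0.41, CCNA2 to -0.51, E2F8 to 0.46, RRM2 to 0.57 and ASF1B to 0.42. These moves were all upward. A bright gene such as PCNA (control mean 10.41) moved from -0.52 to -0.43, and a dim one such as CCND3 (5.45) stayed at -0.19. The part of this shift in the lower values of bright genes was not tested. Changed genes numbered 1036 higher and 1609 lower with an intensity trend, and 185 and 224 without an intensity filter, where more and dimmer genes are tested; with an array left out they ran from 0 to 310 higher and from 0 to 481 lower. The counts that follow need not be of the same genes. The list of cyclins and CDKs had 3 changed genes, all lower, but 1 with quantile normalization (CCNE2, higher, with none of the 3 kept), 0 without the filter, and 0 with any array left out. The E2F and RB factors (1) became 2 with quantile normalization, 3 with the trend, 0 without the filter and 0 with any array left out. The G1/S targets (3) became 6 with quantile normalization, 11 with the trend, 1 without the filter and 0 to 3 with an array left out. The G2/M genes (4) became 1, 10 and 0 in these settings and 0 to 1 with an array left out. Nucleotide supply (1) became 0, 6 and 0, and 0 with any array left out. The histone chaperones (3) became 1, 5 and 1, and 0 to 1 with an array left out. The ubiquitin ligases (3) became 7 with the trend, 0 without the filter and 0 to 1 with an array left out. The cause of these changes was not tested.

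Signs turned for CDK1 (0.043), CDK2 (0.042) and RRM1 (0.051) with quantile normalization. With an array left out the difference changed sign within -0.11 to 0.025 for CDK1, -0.15 to 0.047 for CDK2, -0.060 to 0.078 for CCNB2, -0.019 to 0.14 for CCND2 and -0.015 to 0.10 for RB1, none of which had passed. MIR3116-1 turned to -0.075 with the mean of its probe sets, which disagree.

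The replicate number as a block gave 673 genes higher and 931 lower, kept 12 of the 16 list calls (CDK7, DCTPP1, TLK2 and KIF2C were lost) and added CCNE2 and PPAT. With 2 pairs the numbers alone do not show that samples were paired; same-numbered arrays deviated with a correlation of 0.14. The SD of the difference between the arrays of a group, 0.17 for control and 0.20 for BRPF3 siRNA, limits what can be detected, and an array left out leaves a single array whose spread is taken from the other group.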
